A study of Danio rerio with 24 samples.

Results

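To analyse how zebrafish chemokines that are made on demand differ from those made at rest in their modulation by LPS, 8 chemokine genes were followed across liver, kidney and muscle: *cxcl18b*, *ccl34a.4*, *ccl20a.3*, *ccl19a.1*, *ccl39.1*, *cxcl12a*, *cxcl12b* and *cxcl14*. Their probes were taken through the transcript accession of each spot, and 7 of the 8 genes had at least 1 probe. In all, 15 of 43603 probes on the array belonged to them: 4 to *cxcl12a*, 3 each to *ccl39.1* and *cxcl14*, 2 to *ccl20a.3* and 1 each to *cxcl18b*, *ccl34a.4* and *ccl19a.1*. The gene *cxcl12b* matched no probe by name and is not analysed here. The 6 groups were liver LPS, liver PBS, kidney LPS, kidney PBS, muscle LPS and muscle PBS, with 4 one-colour arrays each and 24 in all. The LPS fish received 10 μg of LPS in the peritoneum and the PBS fish an equal volume of PBS, and all were adult wild-type zebrafish of 9 months, labelled as kept on the normal diet and sampled 3 hours after injection. Each array carried RNA from a pool of 3 fish whose sex the sources used here do not give. The spread between arrays of a group is therefore one between pools of whole organs, with any differences between slides and scan days included.

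Chemokines are small secreted proteins that steer leukocytes through G protein-coupled receptors, and they are named CC or CXC by the spacing of their first cysteines. Inflammatory chemokines are transcribed within hours of a microbial stimulus, mainly through NF-κB, and recruit neutrophils, monocytes or lymphocytes. Homeostatic chemokines are made without a stimulus and place cells in their tissues: Cxcl12 acts through Cxcr4, is taken up by the scavenger receptor Ackr3, and in mammals retains blood progenitors and neutrophils in the marrow. In fish the kidney is the main haematopoietic organ.

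The levels below are log2 signals relative to the 75th percentile of their own array, which is set to 0, so they compare arrays for 1 probe and not different probes with each other. The raw 75th percentile lay between 379 and 4848 intensity units, and between 39.4% and 84.8% of the probes of an array were well above background. Pairs of arrays of 1 group correlated with r between 0.793 and 0.965 across probes. The lists of hepatocyte, kidney tubule and skeletal muscle markers were highest in their own tissue by their medians. Kidney arrays nonetheless reached hepatocyte sums of 924 and skeletal muscle sums of 350, and muscle arrays hepatocyte sums of 510. Kidney tubule sums of 7.26 to 58.3 on liver arrays overlapped with those of 16.4 to 105 on kidney arrays. A list of oocyte genes, of which 7 of 8 matched, summed to 13.1 to 26.1 on liver LPS arrays against 28.8 to 219 on liver PBS arrays. In the kidney its sum was 44.4 to 175 on LPS and 3.71 to 229 on PBS arrays, and in muscle 184 to 346 on LPS and 27.6 to 408 on PBS arrays. As a check of the stimulus, *il1b*, an early inflammatory cytokine, was at least 20.9-fold higher on liver LPS than on liver PBS arrays, where it was not well above background (limma adjusted p = 0.00238). Its log2 fold change was 7.13 in the kidney (limma adjusted p = 0.0107) and 3.32 in muscle (limma adjusted p = 0.916).

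In the liver, 5 of the 7 chemokines were significantly modulated 3 hours after LPS injection: *cxcl18b*, *ccl20a.3*, *ccl34a.4* and *ccl19a.1* rose and *ccl39.1* fell, while *cxcl12a* and *cxcl14* did not pass the test. A gene is represented here by its brightest probe, and the threshold was a Benjamini-Hochberg adjusted p of 0.05 over all 40103 probes tested. By probe, 5 of the 15 were higher after LPS and 3 were lower, against 0.354% of all probes tested that were higher and 0.0623% that were lower. By their brightest probe, 0.525% of all 11994 genes tested were called. The members were chosen with earlier results of these data known, so setting them against these shares is a description and no test. In bulk tissue such as this, fewer cells of a type and less RNA per cell cannot be told apart.

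**Figure D1:**
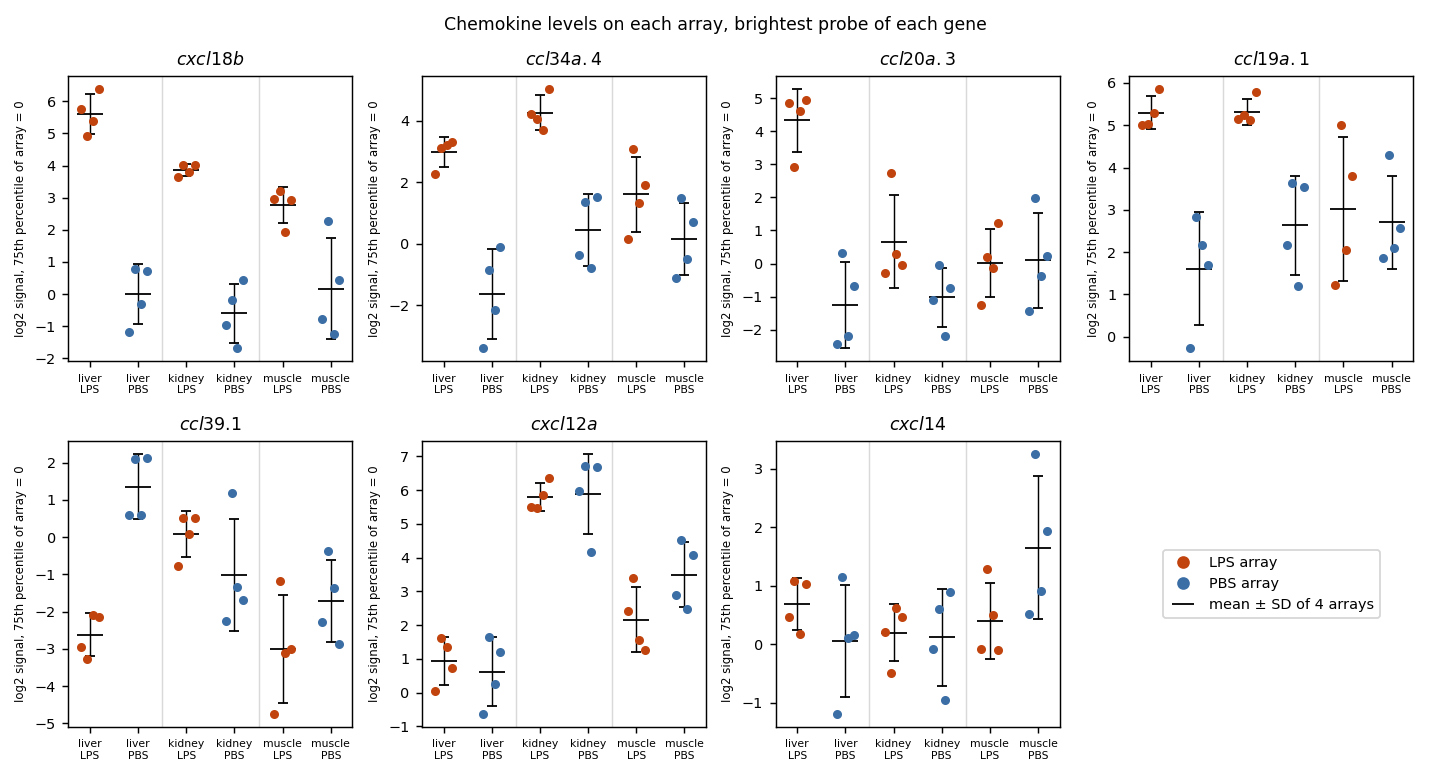
Log2 signal of the brightest probe of each chemokine (vertical axis, the 75th percentile of the array at 0) on the 24 arrays, by tissue and treatment, with the mean and SD of 4 arrays. In the liver the LPS arrays of cxcl18b, ccl34a.4, ccl20a.3 and ccl19a.1 lie above all PBS arrays and those of ccl39.1 below them, and cxcl12a is highest in the kidney with LPS and PBS arrays overlapping.

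*Cxcl18b* is a CXC chemokine found in fish and amphibians that attracts neutrophils in zebrafish, acting through the receptor Cxcr2. Its log2 signal was 5.76, 4.92, 5.38 and 6.39 on the liver LPS arrays, against -1.17, 0.79, -0.31 and 0.71 on the liver PBS arrays. The lowest LPS array lay more than 4 log2 units above the highest PBS array. LPS exceeded PBS by 5.60 log2 units (SE 0.53, limma adjusted p = 0.00275), a 48.6-fold difference.

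*Ccl20a.3* is a zebrafish relative of mammalian CCL20, which draws dendritic cells and lymphocytes to mucosal sites through CCR6. It stood at 4.85, 2.92, 4.62 and 4.93 on the liver LPS arrays, against -2.44, 0.33, -2.20 and -0.69 on the liver PBS arrays. The groups did not overlap, although LPS replicate 2 was well below the other LPS arrays. The mean difference of 5.58 log2 units (SE 0.69, limma adjusted p = 0.00898) came to 47.9-fold, and the second probe of the gene gave 5.36 (limma adjusted p = 0.0113).

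*Ccl34a.4* is a CC chemokine of a subfamily expanded in fish. Its log2 signal was 2.25, 3.11, 3.21 and 3.31 on the liver LPS arrays, against -3.41, -0.86, -2.17 and -0.12 on the liver PBS arrays, 1 of which was not well above background. The LPS arrays lay within about 1 log2 unit of each other and the PBS arrays spread over about 3. On average LPS was 4.61 log2 units higher (SE 0.66, limma adjusted p = 0.0187), or 24.4-fold.

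*Ccl19a.1* is related to mammalian CCL19, which guides dendritic cells and T cells to lymphoid tissue through CCR7 and is counted among both the homeostatic and the inducible chemokines. It was at 5.01, 5.04, 5.28 and 5.86 on the liver LPS arrays, against -0.27, 2.83, 2.17 and 1.70 on the liver PBS arrays. The LPS arrays were close together, and PBS replicate 1 was the lowest array by far. Its increase of 3.69 log2 units (SE 0.61, limma adjusted p = 0.0331), or 12.9-fold, was the smallest of the 4 induced members.

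All 4 induced genes had every liver LPS array above every liver PBS array, as had 4.3% of all probes tested. With single arrays left out, the call was kept in 8 of 8 cases for *cxcl18b*, 7 for *ccl20a.3*, 5 for *ccl34a.4* and 3 for *ccl19a.1*. Of all members, 2 were called without LPS replicate 4 and 3 without PBS replicate 3 or LPS replicate 3. Liver slides held unequal mixtures of the groups, and with the slide as a block, which leaves only the slide with 1 LPS and 3 PBS arrays to carry the comparison, the log2 fold changes were 5.36 for *cxcl18b*, 5.70 for *ccl20a.3*, 3.30 for *ccl34a.4* and 2.77 for *ccl19a.1*. None passed the threshold in that fit (limma adjusted p = 0.0508 for *cxcl18b*, the lowest of them).

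*Ccl39.1*, another CC chemokine of fish, moved the other way in the liver. Its log2 signal was -2.94, -3.28, -2.10 and -2.15 on the liver LPS arrays, against 0.61, 2.09, 0.60 and 2.14 on the liver PBS arrays. The groups were separated by more than 2 log2 units, as no LPS array came near a PBS array, and 3 of the 4 LPS arrays were still well above background. With a log2 fold change of -3.97 (SE 0.51, limma adjusted p = 0.0113), the gene was 15.7-fold lower after LPS.

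The other probes of *ccl39.1* showed the same fall, with log2 fold changes of -4.46 (limma adjusted p = 0.0204) and -4.06 (limma adjusted p = 0.0445). Each of them lacked LPS replicate 1, where the scanner software had marked the spot as an outlier, so these 2 fits used 7 arrays. One of them was not well above background on any liver LPS array, and by that probe PBS was at least 10.8-fold higher. Over all probes tested, 3.63% had every LPS array below every PBS array. The call for *ccl39.1* was kept in 8 of 8 cases with single arrays left out, and the log2 fold change was -4.55 with the slide as a block (limma adjusted p = 0.0859).

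The list of oocyte genes also separated the liver groups, being lower on all LPS than on all PBS arrays, and its part in the liver changes was not tested. For *ccl39.1*, the PBS arrays with the larger oocyte sums, replicates 1 and 3 at 219 and 207, had signals of 0.61 and 0.60, whereas replicates 2 and 4 with sums of 28.8 and 123 had 2.09 and 2.14. Without PBS replicates 1 and 3, an alternative chosen after seeing the data, its log2 fold change was -4.73 (limma adjusted p = 0.0362). In the same fit *cxcl18b* was at 4.86 (limma adjusted p = 0.0362), while *ccl20a.3* at 4.51, *ccl34a.4* at 3.47 and *ccl19a.1* at 3.03 no longer passed (limma adjusted p of 0.105 to 0.162), which left 2 members called. The share of all probes called in that fit is not given here.

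The summed signal of 3 neutrophil markers out of 5 listed, *mpx*, *lyz* and *npsn*, was 1.48, 2.75, 31.5 and 4.05 on the liver LPS arrays, against 0.341, 1.08, 1.76 and 1.26 on the liver PBS arrays. These ranges overlapped slightly, and the array with the most neutrophil signal, LPS replicate 3, was not the one with the highest *cxcl18b*. Sums of 4 exocrine pancreas markers were 765 to 2137 on liver LPS and 292 to 878 on liver PBS arrays, and those of 6 stroma markers 5.06 to 7.91 on liver LPS and 1.37 to 5.21 on liver PBS arrays. The part of neutrophils, pancreas and stroma in the liver changes was not tested.

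*Cxcl12a* and *cxcl14* were not called in the liver. *Cxcl12a* encodes a zebrafish Cxcl12, which guides migrating germ cells and the lateral line primordium in the embryo. It was at 0.04, 1.61, 1.37 and 0.72 on the liver LPS arrays, against -0.62, 1.66, 0.25 and 1.20 on the liver PBS arrays. The groups overlapped over most of their range, and LPS minus PBS was 0.31 (95% interval -0.94 to 1.56, limma adjusted p = 0.888).

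*Cxcl14*, whose mammalian counterpart is made constitutively by epithelia, was at 0.47, 1.08, 0.17 and 1.03 on the liver LPS arrays, against -1.19, 1.14, 0.11 and 0.16 on the liver PBS arrays. PBS replicates 1, 3 and 4 stood below the LPS arrays, the last of these by a narrow margin, and PBS replicate 2 was above them all. LPS minus PBS was 0.63 (95% interval -0.49 to 1.76, limma adjusted p = 0.629). The other probes of both genes gave log2 fold changes of 0.24 to 0.32 for *cxcl12a* and 0.72 to 0.83 for *cxcl14*, none with an adjusted p under 0.05. Both values turned with the slide as a block, to -0.99 for *cxcl12a* and -0.0018 for *cxcl14*, and without PBS replicates 1 and 3 *cxcl12a* was at -0.50.

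**Figure D2:**
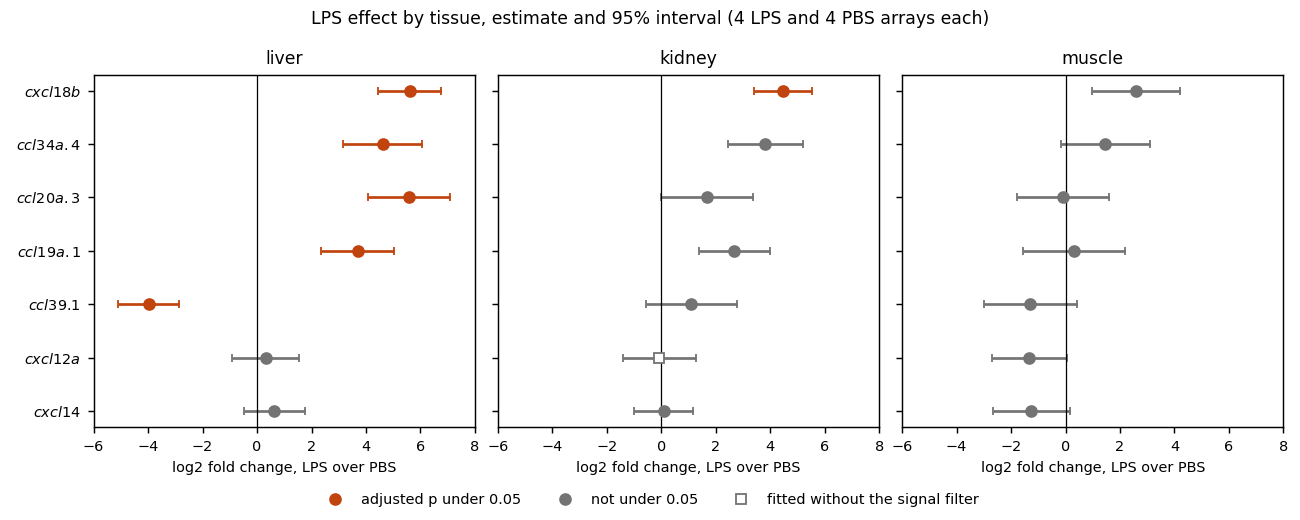
Log2 fold change of LPS over PBS (horizontal axis) with its 95% interval for each chemokine in liver, kidney and muscle, from limma on 4 LPS and 4 PBS arrays per tissue. The threshold was passed by 5 genes in the liver, cxcl18b also in the kidney and none in muscle. The kidney value of cxcl12a comes from the fit without the signal filter.

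In the kidney, *cxcl18b* was the only member that passed the test, and it rose. Its log2 signal was 3.64, 4.01, 3.79 and 4.02 on the kidney LPS arrays, against -0.95, -0.19, -1.69 and 0.44 on the kidney PBS arrays. The LPS arrays were close together and all lay above the PBS arrays. LPS exceeded PBS by 4.46 log2 units (SE 0.47, limma adjusted p = 0.0215), or 22.1-fold, in a comparison where 0.0797% of all probes rose and 0% fell, and where 0.075% of all genes passed by their brightest probe.

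This kidney call depended on the model. Arrays of like replicate number deviated together in the kidney, as did some of unlike number. With the replicate number as a block *cxcl18b* kept its log2 fold change of 4.46 but had a limma adjusted p of 0.0669. With the slide as a block, where the 1 slide holding both groups carried 3 LPS arrays and 1 PBS array, it was 3.37 (limma adjusted p = 0.614). Leaving out PBS replicate 1 or 2 or any of the 4 LPS replicates also ended the call, with limma adjusted p of up to 0.127. Kidney PBS replicates 1 to 3 shared a slide and a scan day that held no LPS array, and with the scan day as a block the value was 3.42 (limma adjusted p = 0.491). The value was 3.74 without PBS replicates 1 and 3 together (limma adjusted p = 0.00991).

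*Ccl34a.4* and *ccl19a.1* had no overlap between the kidney groups either, as had 1.69% of all probes tested in this direction and 3.11% in the other, in which no member had it. *Ccl34a.4* was at 4.23, 4.05, 3.70 and 5.03 on the kidney LPS arrays, against -0.36, 1.35, -0.78 and 1.52 on the kidney PBS arrays. The difference of 3.82 log2 units (SE 0.60) did not pass the threshold (limma adjusted p = 0.113). It passed when the 24 arrays were fitted in 6 groups (limma adjusted p = 0.0143) and without PBS replicates 1 and 3, where it was 2.82 (limma adjusted p = 0.0308), giving 2 called members in either fit. The share of all probes called in these fits is not given here.

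*Ccl19a.1* stood at 5.16, 5.23, 5.11 and 5.78 on the kidney LPS arrays, against 2.18, 3.63, 1.20 and 3.54 on the kidney PBS arrays. Its kidney and liver LPS levels were nearly the same, with means of 5.32 ± 0.31 and 5.30 ± 0.40 (SD, n = 4 each). In the kidney LPS minus PBS was 2.68 (SE 0.57, limma adjusted p = 0.283).

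*Ccl20a.3* did not pass the test in the kidney. It was at -0.30, 2.73, 0.28 and -0.05 on the kidney LPS arrays, against -1.11, -0.06, -2.20 and -0.73 on the kidney PBS arrays. A single array, LPS replicate 2, carried most of the difference, and the other LPS arrays were close to PBS replicate 2. LPS minus PBS was 1.69 (95% interval -0.003 to 3.38, limma adjusted p = 0.556), and without LPS replicate 2 it was at its lowest of the fits with single arrays left out, at 1.0.

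*Ccl39.1* was not called in the kidney either. It was at -0.78, 0.51, 0.08 and 0.52 on the kidney LPS arrays, against -2.24, 1.18, -1.34 and -1.68 on the kidney PBS arrays. PBS replicates 1, 3 and 4 were below all LPS arrays and PBS replicate 2 was above them. LPS minus PBS was 1.1 (95% interval -0.56 to 2.77, limma adjusted p = 0.684). The hepatocyte list summed to 10.8, 924, 101 and 21.2 on these PBS arrays, so PBS replicate 2 was the highest there too. On the kidney LPS arrays it summed to 26.0, 546, 24.1 and 8.86. The part of hepatocyte RNA in the kidney values of *ccl39.1* was not tested.

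*Cxcl12a* was so bright in the kidney that 3 of its 4 probes, the brightest among them, exceeded the upper limit of the signal filter on all 8 arrays and were not tested with the other probes. Its log2 signal was 5.51, 5.48, 5.85 and 6.36 on the kidney LPS arrays, against 5.96, 6.71, 4.17 and 6.68 on the kidney PBS arrays. The LPS arrays lay inside the PBS range. In a fit without the filter LPS minus PBS was -0.08 (95% interval -1.42 to 1.26, limma adjusted p = 0.98), and its remaining probe, which passed the filter, gave 0.11 (95% interval -1.12 to 1.35).

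*Cxcl14* was at 0.20, -0.49, 0.62 and 0.46 on the kidney LPS arrays, against -0.08, 0.60, -0.96 and 0.89 on the kidney PBS arrays. The groups overlapped throughout. LPS minus PBS was 0.08 (95% interval -1.0 to 1.17, limma adjusted p = 0.981), and it turned to -0.78 with the slide as a block, -0.70 with the scan day as a block and -0.55 without PBS replicates 1 and 3.

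In muscle no member passed the test, and no probe did (0%): among 40400 probes, 1235 (3.06%) had p under 0.05 before adjustment in limma, and *cxcl18b* was the 1 member among them. No member had separate groups, against 0.592% of the probes whose LPS arrays all lay above the PBS arrays and 1.67% with the reverse. *Cxcl18b* was at 2.96, 3.22, 1.94 and 2.92 on the muscle LPS arrays, against -0.79, 2.28, -1.26 and 0.44 on the muscle PBS arrays. Only PBS replicate 2 reached into the LPS range. LPS minus PBS was 2.59 (95% interval 0.98 to 4.20, unadjusted p = 0.00492, limma adjusted p = 0.916).

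*Ccl34a.4* was at 0.14, 3.08, 1.32 and 1.89 on the muscle LPS arrays, against -1.14, 1.50, -0.49 and 0.70 on the muscle PBS arrays. The arrays overlapped, and LPS minus PBS was 1.47 (95% interval -0.16 to 3.10). *Ccl19a.1* with 1.21, 5.0, 2.06 and 3.80 on LPS and 1.87, 4.29, 2.09 and 2.58 on PBS arrays had a log2 fold change of 0.31 (95% interval -1.57 to 2.19). *Ccl20a.3* with -1.27, 0.20, -0.13 and 1.24 on LPS and -1.44, 1.99, -0.37 and 0.23 on PBS arrays had one of -0.09 (95% interval -1.77 to 1.59). For both genes the spread within a group was larger than the difference between the group means.

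The remaining members had negative muscle values. *Ccl39.1* was at -4.74, -1.18, -3.11 and -3.0 on the muscle LPS arrays, against -2.27, -0.37, -1.35 and -2.87 on the muscle PBS arrays, a log2 fold change of -1.29 (95% interval -3.01 to 0.43). *Cxcl12a* was at 2.43, 3.40, 1.55 and 1.28 on the muscle LPS arrays, against 2.89, 4.52, 2.48 and 4.09 on the muscle PBS arrays, a log2 fold change of -1.33 (95% interval -2.71 to 0.05). *Cxcl14* was at -0.08, 1.28, 0.49 and -0.10 on the muscle LPS arrays, against 0.51, 3.25, 0.91 and 1.93 on the muscle PBS arrays, a log2 fold change of -1.25 (95% interval -2.65 to 0.15). All 3 had overlapping groups and a limma adjusted p of 0.916. The median log2 fold change of all probes in muscle was -0.19 with the percentile shift and -0.03 after quantile normalization.

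Muscle values also varied with the slide. On the slide with 1 array of each treatment, LPS replicate 1 and PBS replicate 2, the LPS minus PBS difference was 0.68 for *cxcl18b*, -1.35 for *ccl34a.4* and between -4.37 and -2.09 for the other 5 members. On the slide with 2 arrays of each treatment it was 2.99 for *cxcl18b*, 2.09 for *ccl34a.4*, 1.20 for *ccl19a.1* and between -0.81 and 0.10 for the others.

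Over the 3 tissues together, with 12 LPS and 12 PBS arrays and no term for the tissue, *cxcl18b* and *ccl34a.4* rose, as did 0.297% of all probes tested, while 0.00236% fell. By their brightest probe 0.369% of all genes were called. LPS minus PBS was 4.22 for *cxcl18b* (limma adjusted p = 1.85e-05) and 3.30 for *ccl34a.4* (limma adjusted p = 0.00332). This fit takes all arrays as independent, although PBS arrays of like number correlated between all tissues (r from 0.119 to 0.711). Its p-values leave that dependence out of account. Of 8 alternatives, the fit with a tissue term and the pool as a random block among them, *cxcl18b* was called in 8 and *ccl34a.4* in 7. *Ccl19a.1* with 2.23 was short of the threshold (limma adjusted p = 0.0724) and passed it with a term for the tissue (limma adjusted p = 0.0329), with a block for the replicate number (limma adjusted p = 0.0367) or after normexp background correction (limma adjusted p = 0.0407). These 3 were its only calls among the 8 alternatives. It did not pass with a tissue term and the pool as a random block. *Ccl20a.3* with 2.39 was not called (limma adjusted p = 0.283), nor were *ccl39.1* with -1.39, *cxcl12a* with -0.37 and *cxcl14* with -0.18. Without PBS replicates 1 and 3 of every tissue, *cxcl18b* alone was called, and *ccl34a.4* was at 2.26 (limma adjusted p = 0.12).

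A call in 1 tissue and not in another does not show that the tissues differed, so the difference between tissues was tested in a fit of all 24 arrays in 6 groups. No member passed in any of the 3 pairs of tissues, where 0%, 0% and 0.00236% of all probes tested were called. Before adjustment, 2 members had p under 0.05 in limma for kidney minus liver, 4 for kidney minus muscle and 6 for liver minus muscle. By their brightest probe, 964, 1025 and 2157 of all 12480 genes tested had it, and of all probes 8.04%, 12.6% and 13.2%. The largest of the members' differences were those of *ccl39.1* and *ccl20a.3*. The LPS effect on *ccl39.1* was 5.08 log2 units higher in the kidney than in the liver (95% interval 2.94 to 7.22, unadjusted p = 6.61e-05, limma adjusted p = 0.564), and its other probes gave 5.27 and 5.09. The LPS effect on *ccl20a.3* was 5.68 log2 units higher in the liver than in muscle (95% interval 3.35 to 8.00, limma adjusted p = 0.32) and the kidney effect minus the liver effect was -3.89 (limma adjusted p = 0.564).

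In the comparison of kidney with liver, *ccl39.1* was called when kidney PBS replicate 2 was left out (limma adjusted p = 0.0467). That array was the one with the hepatocyte sum of 924. For *cxcl18b*, the kidney and liver effects differed by -1.14 (95% interval -2.96 to 0.68), and for *cxcl12a* by -0.39 (95% interval -2.22 to 1.43). The liver effect exceeded that in muscle by 3.02 for *cxcl18b*, 3.15 for *ccl34a.4* and 3.38 for *ccl19a.1*, with limma adjusted p of 0.32 to 0.326. With the pool as a random block these values had the same size and none was called (limma adjusted p of 0.0741 to 0.0791 for these 3 genes).

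Resting levels were compared between the PBS arrays of the 3 tissues, the same arrays that served as controls above. No slide held PBS arrays of different tissues. Kidney PBS replicate 4 was scanned on the day of the liver PBS arrays, and the other kidney and the muscle PBS arrays on other days. Tissue therefore cannot be told apart from slide, and hardly from scan day, which holds for the receptors and other ligands below too. The largest difference between tissues was that of *cxcl12a*. Its kidney PBS level averaged 5.88 ± 1.19, its muscle PBS level 3.49 ± 0.96 and its liver PBS level 0.62 ± 1.02 (SD, n = 4 each). Kidney exceeded liver by 5.26 log2 units (SE 0.71, limma adjusted p = 0.000745), a 38.3-fold difference, and liver minus muscle was -2.87 (limma adjusted p = 0.0235). The other 3 probes gave 4.81 to 5.37 between kidney and liver, all called, and -2.77 (limma adjusted p = 0.0371), -2.06 (limma adjusted p = 0.122) and -2.08 (limma adjusted p = 0.118) for liver minus muscle, so that 2 of the 4 probes were not called there. By the brightest probe, the kidney arrays did not overlap with the liver arrays, nor did the liver arrays with the muscle arrays.

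The difference of 2.39 between kidney and muscle was short of the threshold for this probe (limma adjusted p = 0.063), while 2 of its other probes gave 2.75 and 2.87 (limma adjusted p of 0.0447 and 0.037) and the third 2.61 (limma adjusted p = 0.0553). With the pool as a block all 3 tissue pairs of *cxcl12a* were called (limma adjusted p of 0.000117 to 0.00428). The same order of kidney, muscle and liver was seen for *cxcl12a* in the LPS groups, at 5.80 ± 0.41, 2.17 ± 0.96 and 0.94 ± 0.70 (SD, n = 4 each), where muscle and liver arrays overlapped. Among all genes tested by their brightest probe, the PBS arrays gave calls for 5.85% between kidney and liver, 7.82% between kidney and muscle and 10.6% between liver and muscle.

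On the PBS arrays *ccl39.1* had its highest mean in the liver. Its liver PBS level averaged 1.36 ± 0.87, against -1.02 ± 1.51 in kidney and -1.72 ± 1.09 in muscle PBS arrays (SD, n = 4 each). Liver exceeded muscle by 3.07 log2 units (limma adjusted p = 0.0268), and kidney minus liver was -2.38 (limma adjusted p = 0.0743). Its other probes did not pass for liver minus muscle, with 2.53 (limma adjusted p = 0.0531) and 2.99 (limma adjusted p = 0.0748). Replicate 2 had the highest *ccl39.1* of the kidney and of the muscle PBS arrays, and also their highest hepatocyte sums, 924 and 401. In the liver the highest sum, 1551 on PBS replicate 2, was not on the PBS array with the highest *ccl39.1*. The part of hepatocyte RNA in these levels was not tested. The 2 calls between liver and muscle, *cxcl12a* and *ccl39.1*, rested on few arrays: 1 remained without liver PBS replicate 1, 2, 3 or 4 or muscle PBS replicate 1 or 2, and 0 remained without muscle PBS replicate 4. After LPS the liver mean of -2.62 ± 0.58 was below the kidney mean of 0.09 ± 0.61, with no overlap, and next to the muscle mean of -3.01 ± 1.45, with which it overlapped.

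The 4 induced genes were not called between the tissues at rest, with log2 differences from -1.78 to 2.07. Same-numbered PBS arrays of different tissues deviated together, and with the pool as a block further members were called, as were more genes in general: 20.4% of all genes between kidney and liver, 15.7% between kidney and muscle and 17.9% between liver and muscle. *Ccl34a.4* was 2.07 higher in kidney than in liver (limma adjusted p = 0.00672) and had a difference of -1.78 for liver minus muscle (limma adjusted p = 0.0118). *Cxcl14* had differences of -1.54 for kidney minus muscle (limma adjusted p = 0.0423) and -1.59 for liver minus muscle (limma adjusted p = 0.0351). The call of *ccl39.1* between kidney and liver was gained as well (limma adjusted p = 0.0143), so that 3, 2 and 4 members were called for kidney with liver, kidney with muscle and liver with muscle, against 1, 0 and 2 without the block.

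Ordered by their 6 group means, *cxcl18b*, *ccl34a.4* and *ccl19a.1* had the 3 LPS groups on top, while for *ccl20a.3* muscle PBS stood between kidney LPS and muscle LPS. *Cxcl18b* ran from 5.61 ± 0.62 in liver LPS over 3.87 ± 0.18 in kidney LPS and 2.76 ± 0.56 in muscle LPS to muscle PBS at 0.17 ± 1.58, liver PBS at 0.01 ± 0.93 and kidney PBS at -0.60 ± 0.92 (SD, n = 4 each). The first 3 groups in this order did not overlap, whereas muscle LPS and muscle PBS overlapped and the PBS groups could not be ranked. For *ccl34a.4* kidney LPS was highest at 4.25 ± 0.56, above liver LPS at 2.97 ± 0.49 without overlap, and from liver LPS down every neighbour overlapped with the next. For *ccl20a.3* liver LPS at 4.33 ± 0.95 stood apart and the other 5 groups, between -1.25 and 0.67, overlapped. For *ccl19a.1* kidney LPS and liver LPS overlapped and had higher means than muscle LPS at 3.02 ± 1.71 (SD, n = 4), which overlapped with the PBS groups. The highest muscle LPS array, at 5.004, practically met the lowest liver LPS array, at 5.005. *Cxcl14* had the narrowest range, with 6 group means between 0.06 and 1.65 and an overlap between all neighbours.

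Differences between the PBS pools ran through most members. In each tissue, 6 of the 7 genes were higher on both PBS replicates 2 and 4 than on PBS replicates 1 and 3. The exceptions were *ccl19a.1* in the liver and *ccl39.1* in kidney and muscle. Of all probes, 33.4% showed this pattern in the liver, 46% in the kidney and 43.8% in muscle, so that it was widespread on these arrays. On muscle PBS replicate 2, all 7 members had their highest muscle PBS value.

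The oocyte list ran against this pattern. Its sum on PBS replicates 1 and 3 was 219 and 207 in liver, 210 and 229 in kidney and 408 and 407 in muscle, against 28.8 and 123, 3.71 and 3.72, and 27.6 and 89.7 on PBS replicates 2 and 4 of the same tissues. The list was higher on the arrays where most chemokines were lower, in all 3 tissues. Its part in the chemokine values was not tested.

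**Figure D3:**
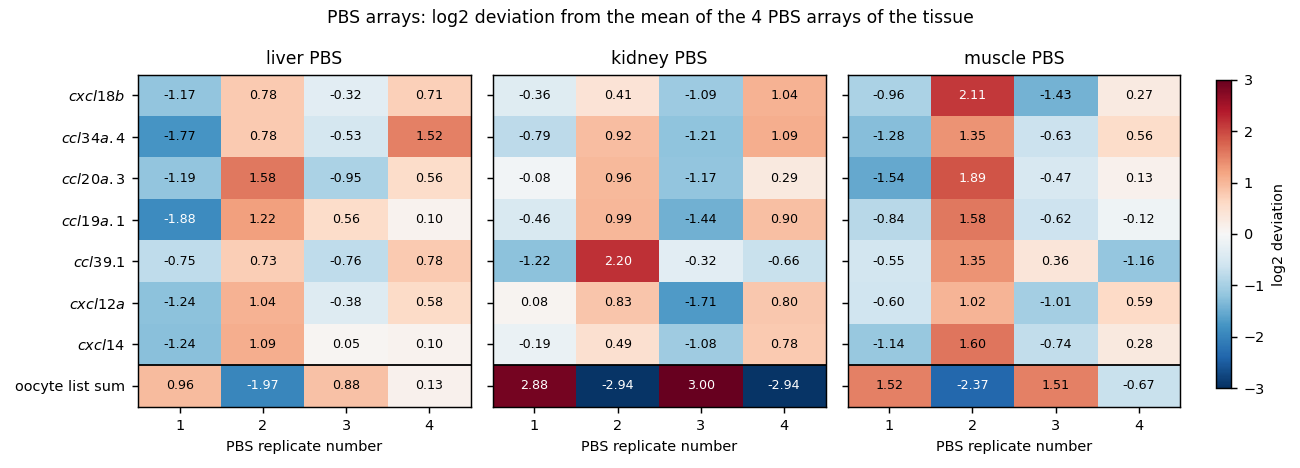
Log2 deviation of each PBS array from the mean of the 4 PBS arrays of its tissue (colour and printed number), for the 7 chemokines and the summed oocyte list (rows) by PBS replicate number (columns). Replicates 2 and 4 are mostly above and replicates 1 and 3 mostly below the mean for the chemokines, and the reverse holds for the oocyte list.

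Probes of 1 gene agreed closely, with r over the 24 arrays between 0.968 and 0.995 for the 4 members with several probes. The genes most like each member were found over the same 24 arrays among 8283 other genes, where arrays share tissue and treatment, and the values are a description. *Cxcl18b* was closest to *tnfa*, a cytokine (r = 0.941), *atf3*, a stress-induced transcription factor (r = 0.939), and *cd83*, a marker of activated antigen-presenting cells (r = 0.933). *Ccl34a.4* was closest to *ch25h*, the cholesterol 25-hydroxylase (r = 0.935), *marcksl1b* (r = 0.933) and *gpr84*, a receptor on myeloid cells (r = 0.933). For *ccl20a.3* the closest genes were *bcar3* (r = 0.92), *slc39a3*, a zinc transporter (r = 0.907), and *fosl2*, a subunit of AP-1 (r = 0.899). For *ccl19a.1* they were *tnfrsf9a* (r = 0.933), *socs3a*, a feedback inhibitor of cytokine signalling (r = 0.93), and *lygl1*, a lysozyme gene (r = 0.927).

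The members that were not induced had other neighbours. *Cxcl12a*, whose levels mainly separate the tissues, was closest to *si:ch211-133n4.4* (r = 0.969), *pitpnc1b* (r = 0.953) and *hoxb7a*, a homeobox gene (r = 0.952). *Cxcl14* was closest to *naa20* (r = 0.916), *capns1b* (r = 0.9) and *il15*, a lymphocyte growth factor (r = 0.9). *Ccl39.1* had no close neighbour: the first was *asb11* with r = 0.8, followed by *diabloa*, a cofactor of apoptosis, with r = 0.704.

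Other chemokine ligands whose probes could be named here numbered 19, which are not all that the array carries. The paper lists *cxcl8a*, *cxcl11.1* and *ccl35.2* among its most raised liver genes after LPS, and none of these names is among the 19. The counts and medians of other ligands therefore leave out strongly induced ones. Of these, 18 were tested in the liver and 1 was called, against 0.525% of all genes tested there. It was *ccl35.1*, with a log2 fold change of 5.23 (limma adjusted p = 0.00238). *Ccl35.1* averaged 3.97 ± 0.44 on liver LPS and -1.26 ± 0.74 on liver PBS arrays, and 4.54 ± 0.19 on kidney LPS and 0.63 ± 1.07 on kidney PBS arrays (SD, n = 4 each). It was also called over the 3 tissues, with all arrays taken as independent, at 3.81 (limma adjusted p = 0.00166). In the kidney alone it was not called, with 3.91 (limma adjusted p = 0.0579). The median log2 fold change of the other ligands was 1.17 in the liver, 0.84 in the kidney and -0.42 in muscle, against 3.69, 2.19 and -0.09 for the listed members and 0.04, -0.02 and -0.09 for all named genes tested. The listed members were chosen with earlier results of these data known, so their medians are a description and no test.

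**Figure D4:**
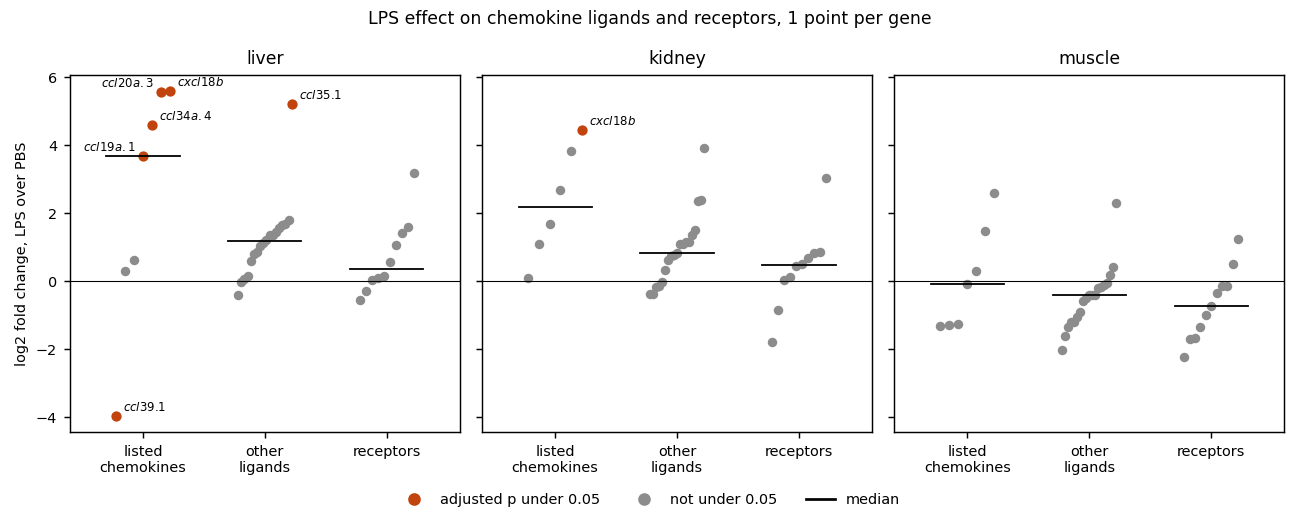
Log2 fold change of LPS over PBS (vertical axis) of the listed chemokines, and of the other chemokine ligands and the chemokine receptors with a named probe, in each tissue. There is 1 point per gene, with the median of each class as a bar. Called genes are in red and named; none of the receptors was called, and the muscle medians lie at or below 0.

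None of the 11 chemokine receptors with a named probe was called after LPS in any tissue, where 10 were tested in the liver, 10 in the kidney and 11 in muscle. Among all genes tested, 0.525% were called in the liver, 0.075% in the kidney and 0% in muscle, so none would be usual for so few genes. In muscle 4 receptors had p under 0.05 in limma before adjustment, against 303 of 12082 genes, and 2 of the 11 had a positive value. The largest falls of group means there were those of *ccr10*, *cxcr4b*, *ccr12a* and *ackr3a*. Of these, *ccr10*, *ccr12a* and *ackr3a* were well above background on 1, 2 and 1 of the 4 muscle PBS arrays and on 0 muscle LPS arrays. Only *cxcr4b* was well above background on all 4 of each. For the receptors of Cxcl12, *cxcr4a* had log2 fold changes of 0.14 in liver, 0.45 in kidney and -0.14 in muscle, and *cxcr4b* of -0.28 in liver and -1.69 in muscle. In the kidney *cxcr4b* exceeded the signal filter and was not tested. It averaged 3.92 ± 0.59 on kidney LPS and 5.31 ± 1.12 on kidney PBS arrays (SD, n = 4 each), with overlapping ranges. The scavenger receptor *ackr3b* was at 1.61 in liver, 0.82 in kidney and -0.14 in muscle, and *ackr3a* was well above background on 1 of the 24 arrays. *Ccr7*, named for the mammalian receptor of CCL19, was at -0.55, -0.85 and -0.99 in liver, kidney and muscle. *Ccr6a*, named for the mammalian receptor of CCL20, was well above background on 5 of the 24 arrays, none of them from the liver, where *ccl20a.3* had its highest group mean. The receptor of Cxcl18b, *cxcr2*, matched no probe by name.

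The receptor *cxcr3.3* was at least 2.49-fold higher on liver LPS than on liver PBS arrays, where it was not well above background (limma adjusted p = 0.0525). On the PBS arrays, *cxcr4a* and *cxcr4b* were higher in kidney than in liver by 2.81 (limma adjusted p = 0.00319) and 3.37 (limma adjusted p = 0.0102), as was their ligand gene *cxcl12a*. *Cxcr3.1*, well above background on 1 of the 4 liver PBS arrays, was higher by 2.67 (limma adjusted p = 0.0441) in the same comparison. That value used 3 of the 4 liver PBS arrays, since outlier spots were dropped. In the comparison of liver with muscle, 1 receptor was called as lower in liver and 1 as higher. The lower one was *ackr3b*, with a difference of -2.84 (limma adjusted p = 0.0391). Only *ccr6a*, *cxcr3.3* and *ackr3a* had higher means in liver, the largest gap being that of *ccr6a*, at -4.09 against -5.89 in muscle. None of them was well above background on any liver PBS array, so the second call rests on background signal.

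Other ligands differed between tissues at rest as well. *Cxcl19* had log2 differences of -4.79 for kidney minus liver (limma adjusted p = 0.00123) and -3.85 for kidney minus muscle (limma adjusted p = 0.00607), and *ccl34b.4* was higher in kidney than in liver by 2.89 (limma adjusted p = 0.0467). *Cxcl19* was well above background on 2 of the 4 kidney PBS arrays. *Ccl27a*, related to a chemokine of mammalian skin, had a log2 difference of -6.25 for kidney minus muscle (limma adjusted p = 0.000553), with 3 of the 4 kidney PBS arrays well above background. It was not well above background on any liver PBS array, and muscle was at least 48.4-fold higher (limma adjusted p = 0.000157). *Ccl25b*, related to a chemokine of mammalian thymus and gut, had differences of -3.76 for kidney minus muscle (limma adjusted p = 0.00636) and -3.90 for liver minus muscle (limma adjusted p = 0.00363). Both used 3 of the 4 muscle PBS arrays, since outlier spots were dropped. *Ccl44* had a difference of -3.30 for kidney minus muscle (limma adjusted p = 0.0149), with 2 of the 4 kidney PBS arrays well above background, and muscle was at least 2.73-fold higher than liver (limma adjusted p = 0.0328), where no PBS array was well above background.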

How the data were processed

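Liver, kidney and muscle of LPS- and PBS-injected zebrafish were hybridized to 24 one-colour Agilent arrays. The authors deposited for each array the spot table of Feature Extraction, whose processed signal is a background-subtracted intensity per spot with no scaling between arrays, and marks for outlier spots and for spots well above background. The file headers name version 10.7.3.1 of that software and the submitters' processing notes 10.4.0.0. The authors also deposited a table of log2 values after a shift at the 75th percentile, which holds a further offset per probe that no source used here describes. For 100% of 35763 probes without outlier spots the deposited and the computed values differed by less than 0.01 once each probe was centred, and its column medians ran from -0.636 to 0.498. It served as an alternative only.

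The log2 signal was taken minus the 75th percentile of each array, spots marked as outliers were dropped, and replicate spots were averaged per probe. The intensity of no member was saturated. Probes were named through RefSeq accessions from a table for the assembly GRCz12tu, used for names only, which gave symbols to 25069 probes and 12858 genes. A gene stands for its brightest probe over the 24 arrays. Following the methods, probes within the 20th to 95th percentile of the raw signal on at least 1 array of a comparison entered the linear model of limma 3.58.1 under R 4.3.3, and its moderated p-values were adjusted by the Benjamini-Hochberg method across all probes tested, with 0.05 as the threshold. A fold printed as at least a value, for a group with no array well above background, is a lower bound against the detection limit of those arrays. Within a tissue, the p-values measure the spread between pools of fish, with any slide and scan-day differences between their arrays. In the fit over all tissues without a tissue term, that spread also holds the differences between tissues. Fits that join tissues without a block for the pool take arrays of like replicate number as independent. The number of arrays limits the precision.

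The members, lists and tests were chosen with earlier results of these data known. Named genes are the listed chemokines, called genes among the other ligands and receptors, receptors known for members, *il1b* as a check, and the 3 genes with the highest r to each member, of which 1 is not reported here. The second gene set for that check, *nfkbiaa*, had log2 fold changes of 3.76 in the liver, 3.03 in the kidney and 1.99 in muscle. Marker lists of 12 cell types were summed per array.

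The replicate numbers come from the sample titles. Deviations from the group means of LPS and PBS arrays of like number correlated in the kidney (r = 0.418, 0.394, 0.301 and 0.64 across probes). Some arrays of unlike number correlated as well: LPS 1 with PBS 3 (r = 0.443), LPS 3 with PBS 1 (r = 0.314) and LPS 4 with PBS 2 (r = 0.307). The other unlike pairs ran from -0.646 to 0.016, and a pairing by number is not established. The fit with the replicate number as a block is given beside the unblocked fit reported for the kidney. Deviations of like-numbered arrays did not correlate throughout in liver (r from -0.165 to 0.17) or muscle (r from -0.267 to 0.325). PBS arrays of like number correlated between all tissues (r from 0.119 to 0.711), while LPS arrays did not (r from -0.496 to 0.242). Alternatives were quantile normalization, normexp with an offset of 50, the authors' table, no filter, probes well above background on at least 4 of 8 arrays, the mean over probes, blocks for slide, scan day, pool and replicate number, other sets of arrays, and each array left out. Normexp used median spot signals, since the mean signal planned for it was not among the columns used here.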

Additional observations from a re-analysis of the deposited data

Results flagged for a closer look

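*Ccl20a.3* on liver LPS replicate 2 stood far from the other arrays of its group. Its log2 signal was 2.92 there, against 4.62 to 4.93 on the other 3 liver LPS arrays, so that 0.846 of the range of the group lay between this array and its nearest neighbour. It was the 1 case among 42 groups of 4 arrays examined for the listed chemokines, and chance alone marks about 1 in 20 such groups.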

How the results depend on the processing

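Of 568 values recomputed with other settings than single arrays left out, 511 were classed as unchanged. In fits with a test, such values kept their direction and side of the threshold. Differences within a slide have no test and were unchanged if they moved by less than the mean SD within groups. Of them, 13 moved further, whatever their sign. In fits with a test 12 values changed sign. That count leaves out sign changes within a slide, such as those of *ccl34a.4* and *ccl19a.1* on the muscle slide with 1 array of each treatment. The cause was not tested for any change. Shares of all probes or genes called are given only for the reported fits and for PBS levels with the pool as a block. Counts of members called in other fits have no such share beside them, so a general change in calls cannot be told from one of the members. With the slide as a fixed block, 0 members were called in the liver (5 in the reported fit) and 0 in the kidney (1), and the log2 fold changes were -0.99 for *cxcl12a* and -0.0018 for *cxcl14* in the liver, -0.78 for *cxcl14* in the kidney and -0.23 for *ccl19a.1* in muscle. With the slide as a random block, 1 member was called for PBS liver minus muscle (2). With the replicate block, 1 was called in the liver and 0 in the kidney, and, for the PBS pairing between tissues, 3 for kidney minus liver (1), 2 for kidney minus muscle (0) and 4 for liver minus muscle (2). The LPS and PBS arrays of a tissue have no established pairing beyond the number. The fit of 24 arrays in 6 groups called 2 in the kidney. Quantile normalization called 1 for PBS kidney minus muscle and gave 0.032 for *ccl19a.1* there, and normexp gave 0.16 for *cxcl18b* in PBS liver minus muscle. With the scan day as a block, chosen after seeing the data like the next setting, 0 were called in the kidney and *cxcl14* was at -0.70. Without PBS replicates 1 and 3, 2 members were called in the liver, 2 in the kidney, 1 over the 3 tissues (2), 1 for PBS kidney minus muscle and 1 for PBS liver minus muscle. *Cxcl12a* was then at -0.50 in the liver, *cxcl14* at -0.55 in the kidney, *ccl19a.1* at -0.41 in muscle and 0.15 in PBS kidney minus muscle, and *ccl20a.3* at -0.21 in PBS kidney minus liver, while *ccl19a.1* had no kidney value because it exceeded the signal filter.

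With each array left out in turn, the members called ranged over 2 to 5 in the liver, 0 to 1 in the kidney, 0 to 0 in muscle and 2 to 3 over the 3 tissues. Ranges were 0 to 1 for the kidney minus liver difference of the LPS effect, 0 to 0 for the other 2 such differences, and 1 to 2, 0 to 1 and 0 to 2 for PBS kidney minus liver, kidney minus muscle and liver minus muscle. Values that crossed 0 were those of *cxcl12a* in the liver (-0.10 to 0.66), *cxcl14* in the kidney (-0.28 to 0.34) and over the 3 tissues (-0.34 to 0.061), *ccl20a.3* (-0.61 to 0.53) and *ccl19a.1* (-0.35 to 0.91) in muscle, and the kidney minus liver difference of the LPS effect on *cxcl12a* (-0.96 to 0.020). Between PBS arrays they were, for kidney minus liver, *ccl20a.3* (-0.17 to 0.76) and *cxcl14* (-0.36 to 0.42), for kidney minus muscle, *ccl34a.4* (-0.14 to 0.74), *ccl19a.1* (-0.40 to 0.46) and *ccl39.1* (-0.035 to 1.15), and for liver minus muscle, *cxcl18b* (-0.64 to 0.54).

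Signal over background limited *ccl39.1* on liver LPS arrays and *ccl20a.3* and *ccl34a.4* on liver PBS arrays, each well above background on 3 of 4 arrays. In the kidney the median log2 fold change of all probes was 0.06 with the percentile shift, -0.04 after quantile normalization and -0.13 after normexp.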
